A study of Homo sapiens with 12 samples.

Results

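TGM2, THBD, CYP27A1 and CA2 are 4 genes that are known to respond to retinoids or to PPAR ligands in myeloid cells. They were followed here in the lines THP-1 and U-937 after honokiol or its solvent DMSO. The 4 genes were chosen by name, with their responses to honokiol in these libraries already known, among the 36866 genes for which values were deposited. Their honokiol responses are therefore given as values with errors and without a test. The difference between the untreated levels of the lines did not enter the choice, and it was tested for TGM2 and THBD. For TGM2 that test rests on a filter passed through honokiol libraries alone.

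THP-1 is a monocytic and U-937 a promonocytic cell line. The labels give both as acute myeloid leukemia (AML) with a complex karyotype. The 4 groups were THP-1 with 0.1% DMSO, THP-1 with honokiol, U-937 with 0.1% DMSO and U-937 with honokiol, each exposed for 24 h and each with 3 libraries of poly(A) mRNA. Honokiol is a biphenolic compound of magnolia bark. The labels list 20 and 35 μM honokiol without tying a dose to a line, so the dose and the line cannot be told apart. Each line is a single cell line. The methods describe experiments as repeated, without saying whether the libraries of a group came from separate cultures, so the spread between libraries may be technical.

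Retinoids act through the receptors RAR and RXR, and fatty acid ligands act through the PPAR receptors. RAR, PPAR, LXR and the vitamin D receptor each pair with RXR on the DNA of their target genes. In monocytes and macrophages these receptors govern lipid handling and parts of differentiation. TGM2 encodes tissue transglutaminase, which crosslinks proteins and is a classic retinoid-induced gene of myeloid cells. THBD encodes thrombomodulin, the surface receptor that turns thrombin from a clotting enzyme into an activator of protein C. CYP27A1 encodes the mitochondrial sterol 27-hydroxylase, which makes 27-hydroxycholesterol, a ligand of LXR. CA2 encodes the cytosolic carbonic anhydrase II, which converts carbon dioxide to bicarbonate and protons.

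The positions are those of GRCh38. TGM2 (ENSG00000198959) lies on the minus strand at chr20:38127385-38166578, with up to 13 exons and a coding sequence of 2061 bases. THBD (ENSG00000178726) lies on the minus strand of the same chromosome at chr20:23045633-23049672, in a single exon with 1725 coding bases. CYP27A1 (ENSG00000135929) lies on the plus strand at chr2:218781749-218815293, with up to 9 exons and 1593 coding bases. CA2 (ENSG00000104267) lies on the plus strand at chr8:85463968-85480886, with up to 7 exons and 780 coding bases. The genes thus share no exon with each other, but 394 of the 8036 exon bases of TGM2 also belong to RPRD1B on the opposite strand. CA3-AS1 overlaps the span of CA2 on the opposite strand and shares 0 exon bases with it.

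The estimated counts summed to between 57406966 and 75065752 per library. The values 4 and 8 were far more frequent than their neighbours, so a sequenced fragment is worth about 4 counts. The mitochondrial genome gave 13.7% of the counts of THP-1 DMSO replicate 1 and 12.6% of those of U-937 DMSO replicate 1, while its share elsewhere was 5.61% to 7.55%. The leukocyte gene PTPRC (CD45) had mean FPKM values of 24.0, 20.4, 16.4 and 17.9 in THP-1 DMSO, THP-1 honokiol, U-937 DMSO and U-937 honokiol cells. The myeloid enzyme gene MPO was at a mean FPKM of 30.1 in THP-1 DMSO cells and of 0.0833 in U-937 DMSO cells. Of 11 markers of lymphoid, erythroid, endothelial, epithelial and stromal cells, 7 had values, and their summed FPKM was 1.83 to 3.99 in the 12 libraries, with overlapping ranges between the treatments of each line. The T cell genes CD3D and CD3E, the endothelial gene VWF and the epithelial gene EPCAM were at a mean of at most 0.0833 FPKM in each group. The part of these markers in the results below was not tested.

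TGM2 was close to its lower limit in DMSO-treated THP-1 cells and was the member with the largest response there. Its FPKM, the number of fragments scaled to exon length and library depth, was 0.21, 0.21 and 0.36 in the 3 DMSO libraries of THP-1 and 1.63, 3.71 and 5.21 in the 3 honokiol libraries. Every honokiol library was above every DMSO library, and honokiol replicate 1 was the lowest of its group. The DMSO mean was 0.260 ± 0.0866 FPKM and the honokiol mean 3.52 ± 1.80 (SD, n = 3). The fitted log2 fold change from the counts was 3.70 (standard error 0.45), or 13-fold. It entered the THP-1 fit through the honokiol libraries alone, since no DMSO library reached the FPKM limit of 0.5. Among the 16283 genes tested in the fit of all 12 libraries, its mean FPKM in THP-1 exceeded that of 6.05% with DMSO and of 51.9% with honokiol.

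In U-937 cells TGM2 was also higher with honokiol, at lower levels. The FPKM was 0.13, 0.10 and 0.04 in the DMSO libraries and 0.37, 0.61 and 0.78 in the honokiol libraries. The treatments did not overlap, and honokiol replicate 1 was again the lowest of its group. The estimated counts were 68, 64 and 23 with DMSO and 215, 337 and 433 with honokiol, which is about 6 to 108 fragments per library at 4 counts each. TGM2 did not reach the FPKM limit in 3 U-937 libraries, so its log2 fold change of 2.65 (standard error 0.52) came from a fit of all 12 libraries. The difference between the responses of the lines, U-937 minus THP-1, was -1.05 on the log2 scale with a standard error of 0.70.

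THBD was the most highly expressed of the 4 genes. Its FPKM in THP-1 cells was 33.38, 38.85 and 32.04 with DMSO and 78.28, 112.55 and 84.66 with honokiol. The lowest honokiol library was thus above the highest DMSO library. The means were 34.8 ± 3.61 and 91.8 ± 18.2 FPKM (SD, n = 3), and the log2 fold change was 1.35 (standard error 0.17), or 2.54-fold. THBD already exceeded 94.0% of the tested genes with DMSO and 98.0% with honokiol.

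In U-937 cells the THBD libraries overlapped. The FPKM was 18.03, 15.72 and 6.58 with DMSO and 11.16, 24.11 and 24.55 with honokiol. Honokiol replicate 1 fell within the DMSO range, while the other 2 honokiol libraries were above it. The log2 fold change was 0.46 (standard error 0.42), and it was 0.11 without DMSO replicate 3, 0.27 without honokiol replicate 3, 0.75 without honokiol replicate 1 and 0.77 without DMSO replicate 1. The difference between the responses of the lines, U-937 minus THP-1, was -0.90 on the log2 scale (standard error 0.52).

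CYP27A1 was expressed in THP-1 cells and close to 0 in U-937 cells. Its FPKM in THP-1 cells was 2.90, 2.4 and 3.71 with DMSO and 4.72, 12.06 and 11.28 with honokiol. The treatments did not overlap, but honokiol replicate 1 was closer to the DMSO libraries than to the other honokiol libraries. The means were 3.0 ± 0.661 and 9.35 ± 4.03 FPKM (SD, n = 3). The log2 fold change was 1.58 (standard error 0.35), or 2.98-fold, and it ranged from 1.35 to 1.90 when each library was left out in turn.

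In U-937 cells the CYP27A1 FPKM was 0, 0.16 and 0.08 with DMSO and 0.21, 0.19 and 0.53 with honokiol. The honokiol libraries were above the DMSO libraries, the lowest at 0.19 against the highest at 0.16. The estimated counts were 0, 40 and 18 with DMSO and 46, 40 and 111 with honokiol, so the counts of DMSO replicate 2 and honokiol replicate 2 were equal. The log2 fold change from the 12-library fit was 1.85 (standard error 0.75), against 0.47 and 0.27 by limma-trend on log2(FPKM + 0.5) and log2(FPKM + 1), where the pseudocount exceeds most of these levels. It was 1.32 without DMSO replicate 1, 1.21 without honokiol replicate 3 and 2.86 without DMSO replicate 2. The difference between the lines was 0.28 (standard error 0.96), and its sign turned in several of the alternatives.

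CA2 went the other way in THP-1 cells. Its FPKM was 11.09, 36.56 and 15.37 with DMSO and 13.40, 4.62 and 4.86 with honokiol. Honokiol replicate 1 lay within the DMSO range, and the other 2 honokiol libraries were below every DMSO library. The means were 21.0 ± 13.6 and 7.63 ± 5.00 FPKM (SD, n = 3), and the log2 fold change was -1.49 (standard error 0.54). DMSO replicate 2 had the highest level, and without it the log2 fold change was -0.86. The treatments no longer overlapped without honokiol replicate 1, when the log2 fold change was -2.19, or without DMSO replicate 1, when it was -1.77. In U-937 cells the CA2 FPKM was 0.03, 0 and 0.05 with DMSO and 0 in every honokiol library. These were 4, 0 and 8 counts against 0, 0 and 0, so no fold is given for U-937.

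**Figure D1:**
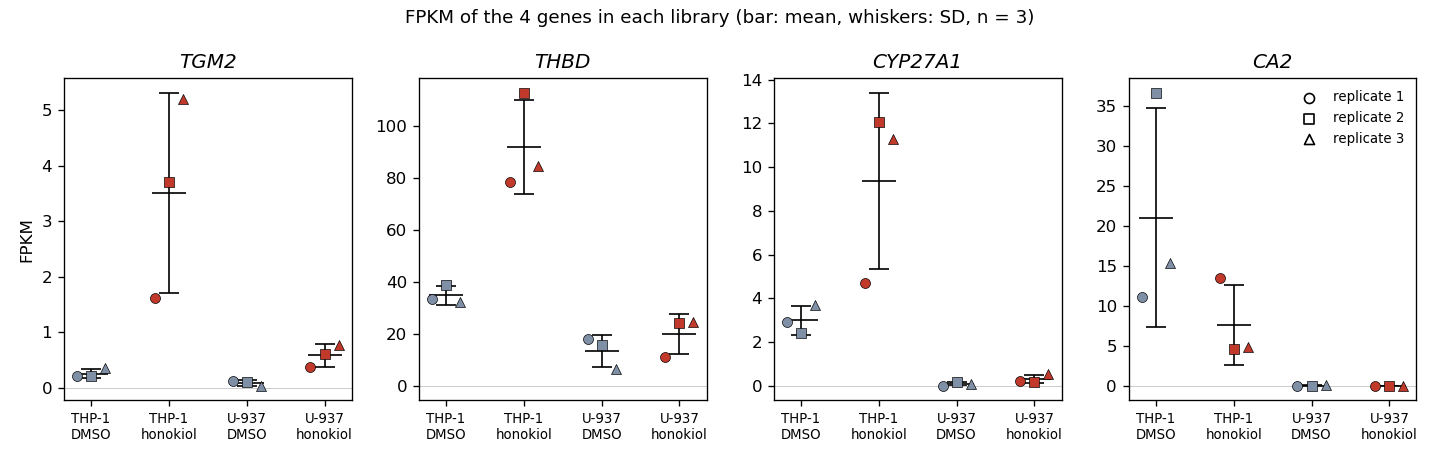
FPKM (linear axes from each gene's own scale) of TGM2, THBD, CYP27A1 and CA2 in the 12 libraries, by line and treatment. Each symbol is 1 library, with the shape giving the replicate number, the horizontal bars are means and the whiskers SD (n = 3); in THP-1, honokiol replicate 1 (circle) was the lowest honokiol library for TGM2, THBD and CYP27A1 and the highest for CA2.

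In THP-1 cells 3 of the 4 members were thus higher with honokiol in every library, namely TGM2, THBD and CYP27A1, and 0 were lower in every library. Over all genes tested in THP-1, 13% were higher and 7.62% lower without overlap. In U-937 cells 2 of the 4 members were higher without overlap, TGM2 and CYP27A1, beside 16.7% of the genes tested there that were higher and 7.50% that were lower. Because the members were selected on these responses, nothing is read from these counts. Leaving out a library cannot make separate treatments overlap, so the number of 3 in THP-1 could not fall. The number in U-937 became 3, with THBD, without honokiol replicate 1. In bulk libraries a change in the RNA of each cell and a change in the share of cells that express a gene cannot be told apart.

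Called genes had a Benjamini-Hochberg adjusted p-value under 0.05 in edgeR's quasi-likelihood test and an absolute log2 fold change over 1. In the honokiol comparison of THP-1 cells 0.0411% of the genes were called (6 of 14600), and in that of U-937 cells 0.0947% (13 of 13726). An unadjusted p under 0.05 was reached by 1907 genes of THP-1 and by 2291 genes of U-937, while DESeq2 called 250 and 223 genes.

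The responses were also computed without the DMSO library of high mitochondrial share in each line. Without THP-1 DMSO replicate 1 the log2 fold changes were 3.61 for TGM2, 1.36 for THBD, 1.60 for CYP27A1 and -1.77 for CA2, against 3.70, 1.35, 1.58 and -1.49 with it. Without U-937 DMSO replicate 1 they were 3.05 for TGM2, 0.77 for THBD and 1.32 for CYP27A1, against 2.65, 0.46 and 1.85 with it.

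**Figure D2:**
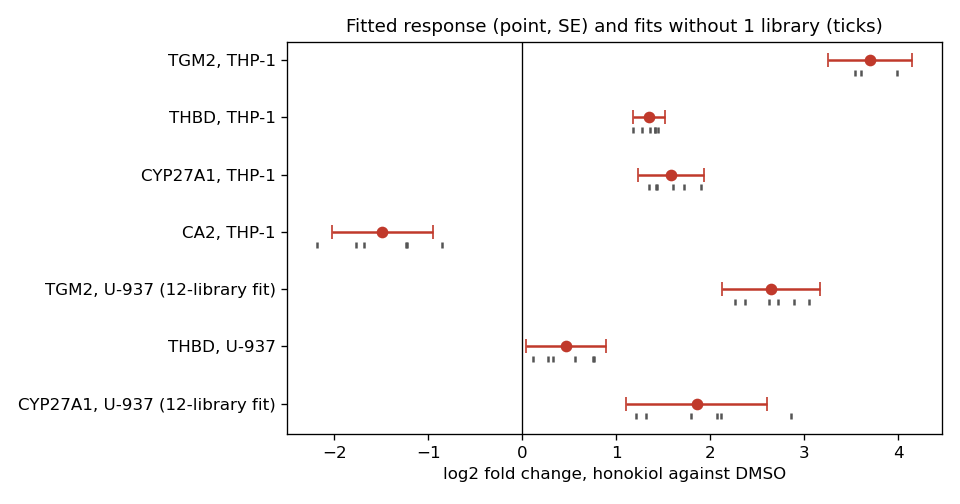
Fitted log2 fold change of honokiol against DMSO (x axis) for each member and line. Points are the fit of all libraries with its standard error as whiskers, and the ticks beneath are fits without 1 library; CA2 in THP-1 is the member below 0, from -2.19 to -0.86 over its ticks, and CA2 in U-937 is not drawn.

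Honokiol replicate 1 of THP-1 stood closest to DMSO for all 4 members, and its place among other genes was counted. Of 23 other listed genes of the retinoid, PPAR, LXR and vitamin D lists that were higher with honokiol without overlap in THP-1, 17 (73.9%) had their lowest honokiol value in replicate 1. The share was 58.2% of the 1898 genes higher without overlap among all genes tested, and 39.2% of all 14600 genes. In U-937 cells the replicate 1 library was lowest for 10 of 20 such listed genes (50.0%), for 38.4% of all genes higher without overlap and for 35.3% of all genes. The mitochondrial share of THP-1 honokiol replicate 1 was 6.91%, within the range of the other libraries. The part of this library in the members' spread was not tested.

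The levels of the 4 genes without honokiol differed between the lines. Each was lower in U-937 than in THP-1 DMSO cells, with no overlap between the 3 libraries of each line. Nothing is read from that, since the share of all genes without such overlap was not computed. Between these groups 5542 of the 16283 genes tested were called. For TGM2 the log2 fold change, U-937 against THP-1, was -1.60 (standard error 0.51), or 3.04-fold lower, with an adjusted p of 0.0192 by edgeR in the fit of 12 libraries. TGM2 passed the filter of this fit through honokiol libraries alone, since its highest DMSO value was 0.36 FPKM, under the limit of 0.5. It therefore could not be fitted in the DMSO libraries by themselves, and its test compares levels under the filter. The call for TGM2 was lost without THP-1 DMSO replicate 3 (adjusted p = 0.0688) and without U-937 DMSO replicate 3 (adjusted p = 0.0617) in the same edgeR test. It was also lost in limma-trend on log2(FPKM + 0.5), where the difference was -0.36 (limma adjusted p = 0.326). Over all its alternatives the adjusted p of the TGM2 difference ranged from 0.00254 (DESeq2) to 0.494 (limma). THBD had a log2 fold change of -1.40 (standard error 0.37, edgeR adjusted p = 0.00713), or 2.64-fold lower, and was called in each alternative run, with adjusted p from 0.00037 to 0.0262. Without U-937 DMSO replicate 3 the THBD difference was -1.06.

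For CYP27A1 the log2 fold change between the DMSO groups was -5.25 (standard error 0.80), and it was -2.59 and -1.88 by limma-trend with the pseudocounts 0.5 and 1. CA2 had about 2324 fragments in the 3 THP-1 DMSO libraries and about 3 in the 3 U-937 DMSO libraries at 4 counts per fragment. That is a ratio of 799.5 with an exact 95% interval of 273.2 to 3880, which covers counting error only. CYP27A1 and CA2 passed the filter of this fit through THP-1 libraries, where they are high, so their differences are given as descriptions with no test. THBD was called lower in U-937, beside 19.7% of the 16283 genes tested. TGM2 was also called in the main fit, but from DMSO levels under the filter limit, and it lost the call in the alternatives given above. The p-values measure the spread between these libraries, and an exact permutation test of a single gene with 3 against 3 libraries cannot go below p = 0.1.

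The order of the group means differed between the members. For TGM2 it was THP-1 honokiol, U-937 honokiol, THP-1 DMSO and U-937 DMSO, with no overlap between neighbours, so honokiol-treated U-937 cells were above untreated THP-1 cells. For THBD and CYP27A1 both THP-1 groups stood above both U-937 groups. The neighbours overlapped for THBD in U-937 with and without honokiol, and did not overlap for CYP27A1. For CA2 the order was THP-1 DMSO, THP-1 honokiol, U-937 DMSO and U-937 honokiol, and the neighbours overlapped within each line.

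Over the 12 libraries, on the scale of log2(FPKM + 0.5), THBD and CYP27A1 were the most alike of the 6 pairs of members, with a Pearson r of 0.91. TGM2 and CA2 were the least alike, with r of 0.28. These are descriptions, since the 12 libraries share 2 lines and 2 treatments and are not 12 independent points.

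The genes whose profile was most like each member were searched among 16283 genes with the same measure. Patterns over the libraries that they share with the member follow from that choice. For TGM2 they were GDF15, KCNG1, NUP50-DT, RHOU and KIZ, with r from 0.962 down to 0.934. GDF15 encodes a stress-induced cytokine of the TGF-beta family. Its FPKM was 0.42, 0.53 and 0.39 in THP-1 DMSO, 2.52, 3.27 and 7.39 in THP-1 honokiol, 0.16, 0.19 and 0.09 in U-937 DMSO and 0.63, 1.66 and 1.69 in U-937 honokiol libraries. As with TGM2, the treatments did not overlap in either line and replicate 1 was the lowest honokiol library of each.

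For THBD the most alike genes were CD14, KCMF1, FAM214B, RAPGEF2 and ITPRIPL2, with r from 0.973 to 0.963. CD14, the lipopolysaccharide co-receptor of monocytes, was at 2.19, 2.25 and 3.39 FPKM in THP-1 DMSO and 4.94, 8.75 and 4.48 in THP-1 honokiol libraries. In U-937 it was at 0.96, 1.14 and 0.17 with DMSO and 0.54, 2.15 and 1.47 with honokiol. As with THBD, the U-937 treatments overlapped through honokiol replicate 1.

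For CYP27A1 the most alike genes were CAMK2D, MSC-AS1, LCA5, RNPC3 and CXCR2P1, with r from 0.994 to 0.988. MSC-AS1, LCA5 and CXCR2P1 had a mean FPKM of at most 0.02 in both U-937 groups, so the line difference carries much of the likeness. For CA2 they were TSPOAP1, OLIG2, ULK2, DLL4 and ULBP3, with r from 0.998 to 0.994. OLIG2, a transcription factor best known from glial cells, was at 18.23, 44.66 and 31.42 FPKM in THP-1 DMSO and at 20.29, 10.04 and 7.66 in THP-1 honokiol libraries, and at 0.10 or less in each U-937 library. As with CA2, honokiol replicate 1 lay within the DMSO range of THP-1.

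**Figure D3:**
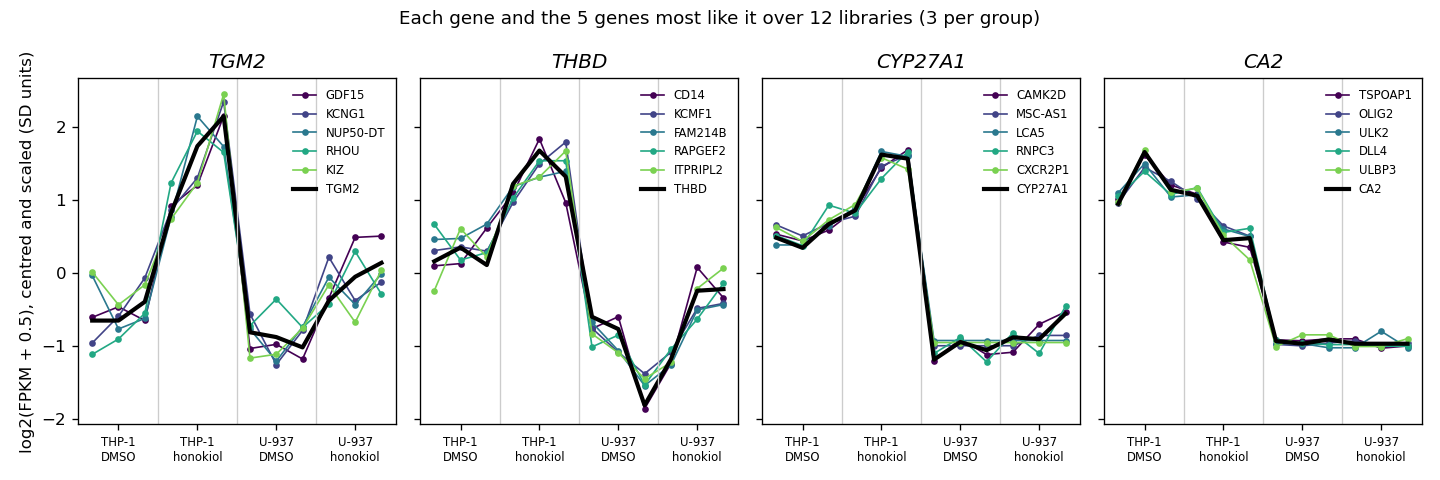
Profile of each member (black) and of the 5 genes most like it over the 12 libraries, in the order replicate 1 to 3 within each group. The y axis is log2(FPKM + 0.5), centred and divided by its SD for each gene; for CYP27A1 and CA2 the 6 U-937 libraries lie together at the bottom.

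The other genes of the retinoid response were compared with the members by lists. The retinoid list holds 22 genes, of which THP-1 had 16 tested genes and U-937 had 14, and edgeR called 0 in either line. An unadjusted p under 0.05 was reached by 7 in each line, and DESeq2 called 4 in THP-1 (ASB2, CRABP2, DHRS3 and, lower, TNFSF10) and CD38 in U-937. Over all genes tested, 1907 of 14600 and 2291 of 13726 had an unadjusted p under 0.05 by edgeR, and DESeq2 called 250 and 223. In THP-1, 6 of the 16 were higher and 2 lower with honokiol without overlap, beside 13% and 7.62% of all genes tested. The median log2 fold change of the 16 was 0.30 beside 0.00 for all genes tested. In U-937, 6 of the 14 were higher and 1 lower, beside 16.7% and 7.50% of all genes tested. The median of the 14 was 0.25 beside 0.02. These shares over all genes are also the background of the lists that follow. Among the genes without overlap, the highest log2 fold changes were those of DHRS3 in THP-1 and of CD38 in U-937, while CRABP2, a retinoic acid carrier, had 2.23 in THP-1 with overlapping libraries. DHRS3, a retinaldehyde reductase, went in THP-1 from 0.680 ± 0.459 FPKM in DMSO libraries to 2.72 ± 0.608 in honokiol libraries (SD, n = 3). Its log2 fold change was 1.96 (standard error 0.45, edgeR adjusted p = 0.174).

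CD38, an ectoenzyme that consumes NAD and a retinoid-induced surface marker of myeloid cells, had FPKM values of 0.300 ± 0.0964 and 2.35 ± 0.936 in U-937. In U-937 it passed the filter through honokiol libraries alone, with DMSO values of 0.37, 0.34 and 0.19 FPKM. Its log2 fold change of 2.86 there (standard error 0.40) is therefore a description, and nothing is read from its DESeq2 call. In THP-1 the log2 fold change of CD38 was 0.82 (standard error 0.21, edgeR adjusted p = 0.215). ASB2, a subunit of a ubiquitin ligase, had a log2 difference of 1.21 in THP-1 cells and of 0.62 in U-937 cells. The integrin genes ITGAM and ITGAX had 0.70 and 0.67 in U-937, and 0.01 and 0.33 in THP-1. TNFSF10, which encodes the death ligand TRAIL and is retinoid-induced in some leukemia cells, had the opposite sign, with -2.23 in THP-1 (edgeR adjusted p = 0.118) and -0.95 in U-937 (adjusted p = 0.163). The retinoic acid hydroxylase genes CYP26A1 and CYP26B1 and the receptor gene RARB, which were picked for mention after their values were seen, were at a mean of at most 0.117 FPKM in every group and were not tested.

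The PPAR list holds 11 genes. Of its 10 genes tested in THP-1, 9 were higher with honokiol without overlap, and of its 8 tested in U-937, 7 were. The edgeR test called 0 in either line, 8 and 6 had an unadjusted p under 0.05, and DESeq2 called 5 for THP-1 and 2 for U-937, PLIN2 and SLC25A20 in both. The median log2 fold changes were 1.12 and 0.94, beside -0.001 and 0.016 for all genes tested. PLIN2, which coats lipid droplets, had FPKM values of 25.3 ± 9.56 and 125 ± 29 in THP-1 and 15.3 ± 12 and 185 ± 128 in U-937 (SD, n = 3). Its log2 fold changes were 2.25 (edgeR adjusted p = 0.0607) and 3.52 (adjusted p = 0.0842). FABP4, a fatty acid carrier of macrophages, was at 0.75, 0.07 and 1.67 FPKM with DMSO and at 2.39, 32.13 and 21.99 with honokiol in THP-1. As for TGM2, THBD and CYP27A1, honokiol replicate 1 was its lowest honokiol library in that line. PDK4, a kinase that holds back pyruvate dehydrogenase, had a THP-1 log2 fold change of 4.14 and was at 0.01 FPKM or less in each U-937 library. In THP-1 it passed the filter through honokiol libraries alone, with DMSO values of 0.17, 0.07 and 0.36 FPKM. No p is therefore given for PDK4, and nothing is read from its place among the 5 DESeq2 calls. SLC25A20, the mitochondrial acylcarnitine carrier, had log2 fold changes of 1.34 and 1.28.

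The sterol that CYP27A1 makes is a ligand of LXR, and the LXR list holds 11 genes. In THP-1 all 11 were tested, 1 was called and 6 were higher without overlap, beside 13% of all genes tested. Their median log2 fold change was 0.69, beside -0.001 for all genes tested. In U-937, 8 were tested, 1 was called and 6 were higher without overlap, beside 16.7% of all genes tested. Their median was 0.82, beside 0.016 for all genes tested. DESeq2 called 3 and 4 of them, all higher. The cholesterol exporter gene ABCG1 rose in THP-1 cells, by 2.41 on the log2 scale (edgeR adjusted p = 0.0433). Its call was lost in 8 of 15 alternatives, among them those without DMSO replicate 1, DMSO replicate 2, honokiol replicate 2 or honokiol replicate 3 (edgeR adjusted p from 0.0571 to 0.169). The phospholipid transfer protein gene PLTP rose in U-937 cells, by 1.35 (standard error 0.15, edgeR adjusted p = 0.0337). The PLTP call was lost in 6 of 15 alternatives, 5 of which left out a library other than DMSO replicate 1 (edgeR adjusted p from 0.0789 to 0.158). ABCA1, the other main cholesterol exporter, had FPKM values of 3.77 ± 1.19 and 13.5 ± 0.817 in THP-1, and APOC1 had 7.42 ± 2.56 and 15.8 ± 4.43. SCD, a fatty acid desaturase, had a log2 fold change of 1.04 in U-937 and -0.12 in THP-1. The test of that difference gave 1.16 (standard error 0.26) with an edgeR adjusted p of 0.165.

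The vitamin D list holds 5 genes. In THP-1, 2 of its 4 tested genes were higher without overlap, beside 13% of all genes tested. They were CD14 (log2 fold change 1.16) and the gluconeogenic enzyme gene FBP1 (1.67), and edgeR called 0 and DESeq2 both. In U-937, 1 of 3 was higher without overlap, beside 16.7% of all genes tested. It was the antimicrobial peptide gene CAMP (0.57), and 0 of the 3 were called by either tool or had an unadjusted p under 0.05. Of 104 listed genes with a test of the difference between the responses of the lines, 0 had an edgeR adjusted p under 0.05. The lowest was 0.145, and 16 had an unadjusted p under 0.05. Of all 16283 genes tested for this difference by edgeR, 18 had an adjusted p under 0.05 and 1525 an unadjusted p under 0.05.

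**Figure D4:**
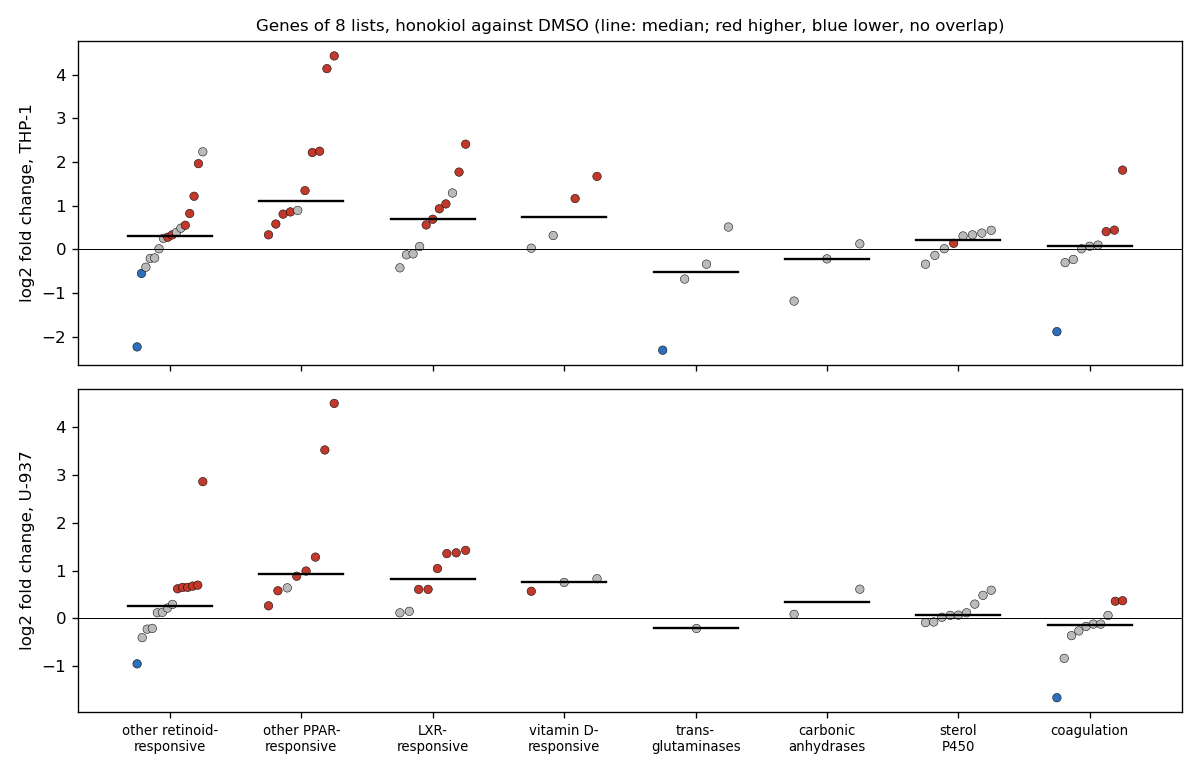
Log2 fold change of honokiol against DMSO for the genes of 8 lists that were tested in THP-1 (top) and U-937 (bottom). Each point is a gene, the lines are list medians, and red and blue mark genes higher and lower without overlap between the treatments; the PPAR list has medians of 1.12 and 0.94, while those of the carbonic anhydrases are -0.22 and 0.35.

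The receptors themselves were expressed at different levels. Of 12 receptor genes THP-1 had 10 and U-937 had 9 past the filter, and edgeR called 0. DESeq2 called NR1H3 in U-937, and 2 and 3 genes had an unadjusted p under 0.05. PPARG had FPKM values of 7.26 ± 0.639 and 12 ± 1.97 in THP-1 and 2.41 ± 0.299 and 4.21 ± 1.38 in U-937, with no overlap in either line and log2 fold changes of 0.67 and 0.71. NR1H3, which encodes LXR alpha, had log2 fold changes of 0.93 and 1.37 without overlap, and NR1H2, which encodes LXR beta, had 0.34 in THP-1. RXRA, the common partner, was at 13.6 ± 1.77 with DMSO and 11 ± 0.953 FPKM with honokiol in U-937, a log2 fold change of -0.39, and in THP-1 its libraries overlapped.

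TGM2 was set beside its family and its partners. Of the 8 other transglutaminase genes 4 passed the filter for THP-1 and 1 for U-937, 0 were called by edgeR and 0 were higher without overlap. F13A1, the clotting factor XIII subunit and, like TGM2, a crosslinking enzyme of macrophages, was picked for mention after its values were seen. Its FPKM in THP-1 was 1.22, 2.32 and 1.15 with DMSO and 0.64, 0.14 and 0.19 with honokiol, opposite in direction to TGM2, and its log2 fold change was -2.31 (standard error 0.59, edgeR adjusted p = 0.214). DESeq2 called it as lower, and it was the 1 gene of the family with an unadjusted p under 0.05. Among 7 genes for surface and matrix partners of TGM2, 5 passed the filter for THP-1 and 3 for U-937, 0 were called by edgeR, and 1 was higher without overlap in each line. These were the endocytic receptor gene LRP1 in THP-1, at 4.85 ± 0.881 and 11.3 ± 3.76 FPKM and called by DESeq2, and the integrin gene ITGB1 in U-937, at 38.0 ± 2.53 and 48.1 ± 5.88. RPRD1B, which overlaps TGM2 on the other strand, stood at -0.42 in THP-1 cells and at 0.14 in U-937 cells on the log2 fold scale. The part of RPRD1B fragments in the TGM2 counts was not tested.

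THBD acts in the coagulation system of the monocyte surface, for which 14 genes were listed. Of these 9 passed the filter for THP-1 and 10 for U-937, and edgeR called 0. An unadjusted p under 0.05 was reached by 2 in each line, and F3 was called by DESeq2 in both lines. F3 encodes tissue factor, which starts coagulation, whereas thrombomodulin restrains it. Its FPKM was 6.11, 11.85 and 4.36 with DMSO and 2.89, 1.78 and 1.55 with honokiol in THP-1, and 1.71, 0.87 and 1.63 against 0.41, 0.68 and 0.33 in U-937. The honokiol and DMSO values of F3 were separate in each line, and the log2 fold changes were -1.88 (standard error 0.40, edgeR adjusted p = 0.165) and -1.66 (standard error 0.39, adjusted p = 0.126). F3 thus had the opposite sign to THBD in THP-1. In U-937 the THBD libraries overlapped, and its log2 fold change was 0.46 (standard error 0.42).

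The thrombin receptor gene F2R had a log2 fold change of 0.44 among THP-1 libraries. The protein S gene PROS1 had 0.37 and the urokinase gene PLAU 0.36 in U-937, each without overlap. PROCR, the receptor that presents protein C to thrombomodulin and picked for mention after its values were seen, was at 3.41 ± 0.252 and 4.71 ± 0.469 FPKM in THP-1 and at 12.7 ± 1.58 and 12 ± 1.09 in U-937.

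KLF2 is a known activator of THBD in endothelial cells. Its FPKM was 3.02, 3.84 and 2.99 with DMSO and 2.83, 0.89 and 0.76 with honokiol in THP-1, and 0.74, 0.67 and 0.46 against 0.36, 0.43 and 0.30 in U-937. KLF2 was thus lower without overlap in both lines. Its log2 fold change was -1.18 in THP-1 (standard error 0.49, edgeR adjusted p = 0.364), and was not tested in U-937. Of the 3 KLF genes listed 0 were called by either tool, and KLF2 alone had an unadjusted p under 0.05. CD93, which lies 29608 bases from THBD on the same strand, was at 42.6 ± 3.13 and 62.9 ± 4.74 FPKM in THP-1 and at 203 ± 26.7 and 241 ± 9.86 in U-937. Its log2 fold change was 0.51 in THP-1 (standard error 0.12, edgeR adjusted p = 0.184) and 0.16 in U-937. Unlike THBD, CD93 was higher in U-937 than in THP-1 DMSO cells, with a log2 fold change of 2.21 (edgeR adjusted p = 1.04e-07).

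CYP27A1 works with mitochondrial electron carriers and stands beside other sterol hydroxylases, and 15 such genes were listed. In THP-1 8 were tested and in U-937 9, and 0 were called by edgeR or DESeq2 or had an unadjusted p under 0.05. Only 1 of the 8 was higher without overlap in THP-1, the sterol transfer gene STARD3, with a log2 fold change of 0.14, and 0 of the 9 in U-937. The median log2 fold changes were 0.22 and 0.07. The electron carrier genes FDX1, FDX2 and FDXR, picked for mention after their values were seen, had log2 fold changes of 0.37, 0.31 and -0.14 in THP-1, and their libraries overlapped. The hydroxylase genes CYP7B1, CYP46A1 and CH25H, also picked afterwards, were at a mean of at most 0.353 FPKM in both THP-1 groups.

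CA2 belongs to a family of which 14 other genes were listed. In THP-1 3 were tested and in U-937 2, with 0 called by edgeR or DESeq2, 0 with an unadjusted p under 0.05 and 0 without overlap. CA2 was the carbonic anhydrase gene with the highest mean level in THP-1, at 21.0 FPKM with DMSO against 0.807 or less for each of the others. In U-937 CA11 had the highest level with DMSO, at 3.93 ± 0.995 FPKM, and CA5B, a mitochondrial isoform, had 1.89 ± 1.10. CA11 and CA5B were picked for mention after their values were seen. Of 6 listed carriers of bicarbonate, protons and lactate, 5 were tested in each line and 0 were called by either tool. An unadjusted p under 0.05 was reached by SLC4A7 in THP-1 and by 0 genes in the other line. The bicarbonate carrier gene SLC4A7 was the only 1 of them without overlap in THP-1, at 4.96 ± 0.863 and 8.35 ± 1.46 FPKM, a log2 fold change of 0.69, and 0 were without overlap in U-937.

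Macrophage differentiation markers were mixed in THP-1. Of 10 markers 6 were tested there, 0 were called by edgeR and 1, CD14, by DESeq2, and 2 were higher without overlap, CD14 and ITGAX, with a median log2 fold change of -0.22. In U-937 7 were tested, 0 were called by either tool and 2 were higher without overlap, ITGAM and ITGAX, with a median of 0.67. CSF1R, the receptor of the macrophage growth factor and picked after its values were seen, was at 41.6 ± 9.81 and 28.2 ± 2.75 FPKM in THP-1. Among 9 myeloid line markers 0 were called by either tool, and PTPRC alone was lower without overlap in THP-1, with a log2 fold change of -0.30.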

How the data were processed

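Poly(A) mRNA of 12 libraries was analysed, 3 for each of 4 groups taken from the sample titles. Per gene and library the deposited table gives an FPKM, which the authors normalized for exon length and depth, and an estimated count. The estimated counts were deposited as whole numbers without normalization. The submitters' processing notes list Bowtie 0.12.2, HISAT2 2.0, StringTie 1.3.0 and the mouse build mm8, while the coordinates of the table are those of GRCh38. Of the 36866 genes, 35794 were found in GENCODE 29. Strand-specific counting is not stated.

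Genes were tested where 3 or more libraries of a fit had an FPKM of 0.5 or higher, with edgeR's quasi-likelihood test on the counts with TMM normalization (R 4.3.3, edgeR 4.0.16), within each line for honokiol against DMSO and over all 12 libraries for the difference between lines. P-values were adjusted by Benjamini-Hochberg over all tested genes. Alternatives were RLE size factors, other filters, DESeq2 1.42.0, limma-trend (limma 3.58.1) on log2(FPKM + 0.5) and log2(FPKM + 1), counts divided by 4, a replicate block, other sets of libraries, the adjusted p alone and each library left out. The interval of the CA2 ratio is an exact (Clopper-Pearson) 95% interval on fragments, which covers counting error only. Replicates of a group correlated with Pearson r between 0.987 and 0.994 (log2 of CPM + 1).

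The members and the lists were chosen with earlier results of these data known, so no list is independent evidence of its direction. From each list the text names the genes called and up to 3 others per line with the largest absolute log2 fold change where the mean FPKM reached 1 and treatments did not overlap, and for each member the 5 genes with the highest r. The count without overlap with each library left out, and the alternatives for ABCG1, PLTP and CD93, were added after the values were seen. Values of some listed genes are not reported here.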

Additional observations from a re-analysis of the deposited data

How the results depend on the processing

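Of 204 comparisons of a member's value with an alternative, 195 kept the direction and, where there was a test, the side of the threshold. With limma-trend on log2(FPKM + 0.5) and on log2(FPKM + 1), the pseudocount exceeds the level of TGM2 in DMSO cells. The TGM2 response was then 2.29 and 1.76 in THP-1 and 0.87 and 0.53 in U-937. The TGM2 difference between the DMSO groups was then -0.36 and -0.21 (limma adjusted p = 0.326 and 0.494), and it ranged from -2.02 to -1.23 with each library left out. The CYP27A1 response in U-937 was 0.47 and 0.27, and its difference between the DMSO groups -2.59 and -1.88. The CYP27A1 difference between the responses of the lines turned to -0.94 and -1.02 with limma-trend, and ranged from -0.36 to 1.28 with each library left out, below 0 without THP-1 honokiol replicate 1 (-0.04), U-937 DMSO replicate 1 (-0.26) or U-937 honokiol replicate 3 (-0.36). For TGM2 in THP-1, 3 of the 6 fits without a library could be made, since without a honokiol library it did not pass the filter, and the values were 3.54 to 3.99.

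The number of called genes for honokiol in THP-1, 6, became 0 with no filter, 1 with an FPKM limit of 1, 250 with DESeq2, 0 with limma-trend at either pseudocount, 33 in the fit of all 12 libraries and 0 to 43 with each library left out, 43 without honokiol replicate 1. For U-937 the number, 13, became 223 with DESeq2, 108 in the fit of all 12 libraries and 0 to 6 with each library left out. The number between the DMSO groups, 5542, became 3115 with limma-trend on log2(FPKM + 1) and 8610 by the adjusted p alone, and was 5334 to 5462 with each library left out. The cause of these differences was not tested.

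Replicate numbers are shared by the groups, but same-numbered DMSO and honokiol libraries of a line did not deviate together (r of -0.18 to 0.13). Libraries of different lines were not compared in this way. DMSO replicate 1 had the high mitochondrial share in both lines, 13.7% in THP-1 and 12.6% in U-937. Whether same-numbered libraries were prepared together was not tested. With the replicate block 0 genes were called for either line, and the adjusted p of edgeR was 0.162 for ABCG1 in THP-1 and 0.167 for PLTP in U-937. Over their alternatives, which were added after the values were seen, the adjusted p ranged from 1.01e-22 (DESeq2) to 0.169 for ABCG1 and from 5.4e-11 (DESeq2) to 0.167 for PLTP, while CD93 stayed called between the DMSO groups in all 14. The TGM2 response in THP-1 was 3.60, and the differences between the DMSO groups stayed past the threshold for TGM2 (edgeR adjusted p = 0.0379) and THBD (0.0262). Depth limits CA2 and CYP27A1 in U-937, where a library held 0 to about 28 fragments of either gene.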
